A study of Mus musculus with 6 samples.

Results

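The data describe 7 genes that restrain or tune the transcription factor NF-κB in embryonic mammary buds, out of 25949 probe sets measured on 6 microarrays. The genes were chosen by their Ensembl mouse gene identifiers and are Nfkbia, Nfkbib, Nfkbie, Nfkbiz, Bcl3, Tnfaip3 (also called A20) and Cyld. Each of the 7 had 1 probe set, and no filter on level was applied to them. The identifiers are ENSMUSG00000021025_at for Nfkbia, ENSMUSG00000030595_at for Nfkbib and ENSMUSG00000023947_at for Nfkbie. Nfkbiz is ENSMUSG00000035356_at, Bcl3 ENSMUSG00000053175_at, Tnfaip3 ENSMUSG00000019850_at and Cyld ENSMUSG00000036712_at. The buds came from E13.5 Eda-/- embryos of B6CBA background, which lack the ligand ectodysplasin (Eda), so that control and treated buds share this genotype. Buds of 1 side of each embryo were held for 4 h in control medium and those of the other side for 4 h with Fc-Eda-A1 (hereafter Fc-Eda), a recombinant Eda protein, at 250 ng/mL. About 20 buds of 5 to 6 embryos were pooled per array, most of the mesenchyme around the epithelium was removed by hand, and 3 pools were made for each condition from 3 litters. The arrays therefore form 3 pairs of control and Fc-Eda.

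Eda binds the receptor Edar, which signals to the IκB kinase complex. Among the targets of this kinase are the IκBs, proteins with ankyrin repeats that bind NF-κB dimers and mask their nuclear localization signals. Loss of an IκB unmasks the dimer. The genes of several inhibitors are themselves targets of NF-κB, which forms a negative feedback. Nfkbia, Nfkbib and Nfkbie encode the cytoplasmic inhibitors IκBα, IκBβ and IκBε. Nfkbiz and Bcl3 encode the nuclear IκB proteins IκBζ and Bcl-3, which modulate the transcription of NF-κB targets. Tnfaip3 and Cyld encode enzymes that remove or edit ubiquitin chains on signaling proteins upstream of the kinase.

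The promoters of these genes are shown for the κB motif, the DNA element that NF-κB dimers recognise. The windows run from 250 bases before to 50 bases after a transcript start and come from RefSeq, build GRCm38.p6, whereas the build behind the array identifiers is not given in the sources used here. Of the 7 genes 6 were matched by symbol, Nfkbiz being the other one. The κB consensus of 10 bases was searched on both strands, and a match of the same bases on both strands was counted as 1. It was found in a window of Nfkbia, Nfkbie, Bcl3, Tnfaip3 and Cyld, that is in 5 of the 6 genes, and in 8.46% of the 32851 windows of the table. Counted by gene, 9.55% of the 27025 genes of the table hold it. Nfkbib had no match in its window. Tnfaip3 had 2 separate matches in the window of its outermost start and none in a window that begins downstream. In the stretches below, each 5′ to 3′ on the strand of its gene, capitals mark the match. They are the parts of the windows that lie around the matches, and a match is a description of the letters.
Tnfaip3, minus strand, chr10:19015411-19015610: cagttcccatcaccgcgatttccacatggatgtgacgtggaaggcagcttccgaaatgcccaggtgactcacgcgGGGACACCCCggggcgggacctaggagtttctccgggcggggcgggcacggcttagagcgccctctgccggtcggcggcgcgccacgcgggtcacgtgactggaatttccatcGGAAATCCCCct
Nfkbia, minus strand, chr12:55492648-55492797: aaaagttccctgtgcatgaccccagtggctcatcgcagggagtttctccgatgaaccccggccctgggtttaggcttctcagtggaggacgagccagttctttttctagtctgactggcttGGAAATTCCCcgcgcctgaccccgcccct
Nfkbie, plus strand, chr17:45555550-45555699: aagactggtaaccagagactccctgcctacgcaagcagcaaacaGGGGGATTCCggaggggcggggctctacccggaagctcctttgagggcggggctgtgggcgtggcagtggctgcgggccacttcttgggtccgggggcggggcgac
Bcl3, minus strand, chr7:19822744-19822773: ttcagttcagtcggcggcagGGGAAGTCCC
Cyld, plus strand, chr8:88696848-88696907: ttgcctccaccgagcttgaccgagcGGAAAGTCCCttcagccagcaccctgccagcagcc
The upstream match nearest to a start was that of Tnfaip3, which began 12 bases before it, and the second match of Tnfaip3 began 125 bases before it. The match of Nfkbia began 29 bases and that of Nfkbie 106 bases before the start. In Bcl3 the match began at base 3 of the transcript that sets the window, and in Cyld it began 155 bases before the start. For Bcl3 and Cyld that start is not the outermost start of the gene in RefSeq, and all 30 bases printed for Bcl3 and 30 of the 60 printed for Cyld lie within the span of the gene.

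**Figure D1:**
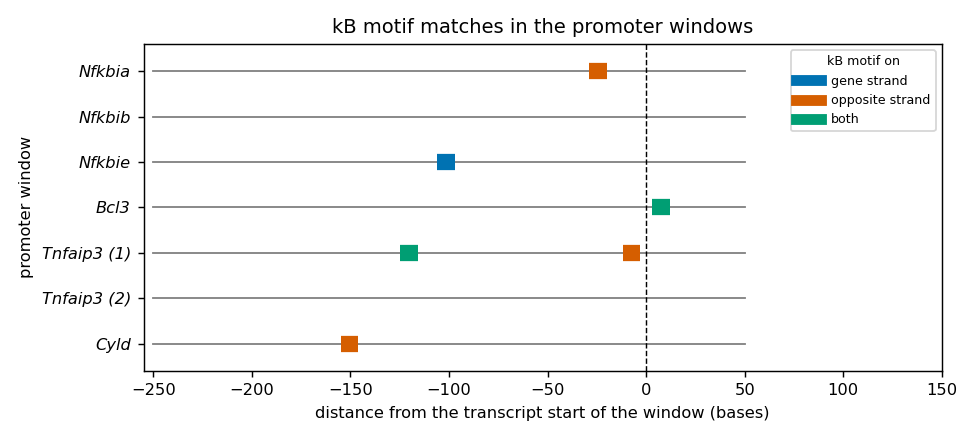
Positions of κB motif matches (coloured blocks, by strand) in the promoter windows of 6 genes, with the distance from the transcript start of each window in bases on the x axis and 1 window per row. The match of Nfkbia begins 29 bases and that of Nfkbie 106 bases before the start, the outer window of Tnfaip3 holds 2 matches, and the window of Nfkbib holds none.

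Values are the log2 levels that the authors deposited, 1 per array and probe set. Probes differ in how well they bind, so levels are compared between arrays for the same gene and not between genes. The array of control 1 differed from the others, with a median of 4.99 over all probe sets against 4.80 to 4.83 and an interquartile range of 2.59 against 2.81 to 2.96. Identifiers of other genes are not paired with names in the sources used here, so marker genes of the bud and of other cell types, and other genes of the NF-κB pathway, were not analysed here. In pooled buds a change in the share of a cell type and a change in RNA per cell cannot be told apart. The comparison asks which transcripts differ after a short exposure to Eda. Differences are Fc-Eda minus control on the log2 scale, tested in limma with the pair as a block and turned into q-values over all probe sets. The same differences were also tested with IBMT, in which the expected variance follows the level, and with a Cyber-T type test, a paired test that pools the SD of probe sets at like levels, since the methods of the study name these 3 tests. A q under 0.05 was the threshold.

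Tnfaip3, Nfkbie and Nfkbia were higher after Fc-Eda in each pair, by 2.25, 1.72 and 1.72 times on average. Bcl3 and Nfkbib were higher in each pair by smaller amounts, 1.36 and 1.23 times, whereas Cyld and Nfkbiz had 95% intervals that included no difference. In limma 0 of the 7 genes passed the threshold, as did 0% of all probe sets in either direction, and 5 of the 7 were higher at an unadjusted p under 0.05 against 2.73% of all probe sets. None of the 7 was lower at that p, against 3.33%. IBMT called 3 of the 7 higher, Tnfaip3, Nfkbie and Nfkbia, against 0.339% of all probe sets. The Cyber-T type test added Bcl3 and called 4 of 7 against 0.624%. No test called any of the 7 lower, where IBMT called 0.0231% and the Cyber-T type test 0.119% of all probe sets lower. In 6 of the 7 all Fc-Eda arrays lay above all control arrays, which was true of 3.98% of probe sets, and in none of the 7 did they lie below, as they did in 5.11%.

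**Figure D2:**
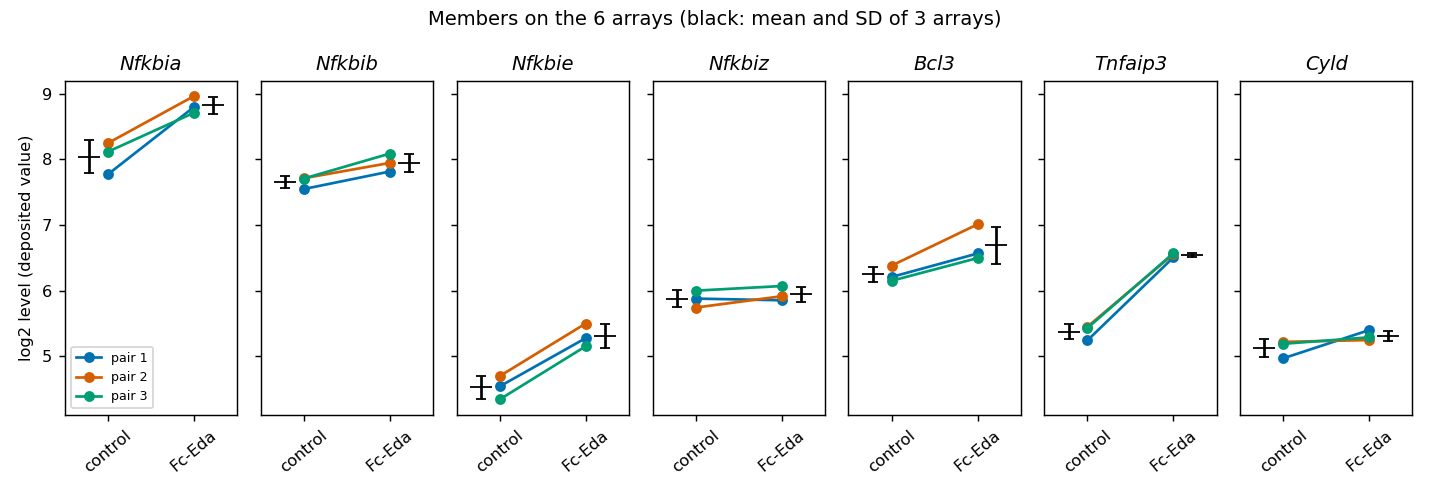
Log2 level of each gene (y axis, deposited values) on the control and Fc-Eda arrays, with lines joining the arrays of 1 pair and black bars for the mean and SD of 3 arrays. The Fc-Eda arrays of Tnfaip3 lie between 6.51 and 6.57, all above its control arrays, and those of Nfkbiz overlap its control arrays.

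Nfkbia encodes IκBα, the inhibitor that is degraded first and made again most quickly when NF-κB is activated. Its log2 level was 7.77, 8.25 and 8.11 on control arrays 1, 2 and 3. After Fc-Eda it was 8.79, 8.96 and 8.71. Every Fc-Eda array was above every control array, and the lowest of them exceeded the highest control array by 0.46. The pair differences were 1.03, 0.72 and 0.59. Pair 1, with the lowest of the control values, had the largest of them. The mean went from 8.04 ± 0.25 (SD, n = 3) to 8.82 ± 0.13, a log2 difference of 0.78 ± 0.11 (standard error; q = 0.259 in limma, 0.0223 in IBMT and 0.00127 in the Cyber-T type test). The 95% interval from limma was 0.49 to 1.06, or 1.41 to 2.09 times. Without pair 1 the difference was 0.66, and IBMT did not call it (q = 0.179) while the Cyber-T type test did (q = 9.38e-05). That q was lower than with all pairs although the difference was smaller, so it is no sign of firmer data. The weight of 10 that this test gives to the pooled SD does not shrink with fewer pairs. Without pair 1 it called 337 probe sets higher and 175 lower, against 162 and 31 with all pairs.

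Nfkbie encodes IκBε, a further inhibitor whose gene is known to respond to NF-κB. Control arrays had log2 levels of 4.54, 4.70 and 4.34. Fc-Eda arrays had 5.28, 5.50 and 5.15. The groups did not overlap, and the order of the 3 pools was the same in both conditions, pool 2 being highest and pool 3 lowest. The pair differences of 0.74, 0.80 and 0.81 had an SD of 0.041, the smallest of the 7 genes, although the arrays of 1 condition had an SD of 0.18. The mean log2 difference was 0.78 ± 0.080 (standard error; q = 0.167 in limma, 0.0347 in IBMT and 0.0089 in the Cyber-T type test), with a 95% interval of 0.58 to 0.99. Its call in IBMT was lost without pair 1 (q = 0.20) or pair 2 (q = 0.170), and that in the Cyber-T type test without pair 2 (q = 0.094) or pair 3 (q = 0.107).

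Nfkbib encodes IκBβ, which is degraded more slowly than IκBα and is not known as a strong NF-κB target. Its log2 levels were 7.55, 7.71 and 7.71 in control buds and 7.81, 7.95 and 8.09 after Fc-Eda. The groups did not overlap, with a gap of 0.10 between the lowest Fc-Eda and the highest control array. The pair differences were 0.27, 0.23 and 0.38. Their mean of 0.29 ± 0.083 (standard error), with a 95% interval of 0.08 to 0.51, passed none of the 3 tests (q = 0.587 in limma, 0.166 in IBMT and 0.118 in the Cyber-T type test). Within the 3 cytoplasmic inhibitors, Nfkbib had the smallest difference in every pair. The difference of Nfkbie exceeded that of Nfkbib by 0.47, 0.57 and 0.43 in the 3 pairs, and that of Nfkbia exceeded it by 0.76, 0.48 and 0.21.

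Bcl3 encodes a nuclear IκB protein that binds NF-κB dimers of p50 or p52 on DNA. Control arrays had log2 levels of 6.21, 6.38 and 6.15, and Fc-Eda arrays 6.57, 7.01 and 6.50. All Fc-Eda arrays were above the control arrays, and the array of pair 2 stood highest. The pair differences were 0.36, 0.63 and 0.35. The mean of 0.44 ± 0.097 (standard error), with a 95% interval of 0.20 to 0.69, passed the Cyber-T type test (q = 0.0303) but neither limma (q = 0.440) nor IBMT (q = 0.115). That call was lost without pair 2 (q = 0.261) and without pair 3 (q = 0.153), and without pair 2 the difference was 0.35.

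Nfkbiz encodes the other nuclear member, which is known for its rapid induction by interleukin-1 and by microbial products. The log2 level was 5.88, 5.74 and 6.00 in control buds and 5.85, 5.91 and 6.07 after Fc-Eda. The groups overlapped, and the pair differences of -0.03, 0.17 and 0.07 included 1 below 0. The mean was 0.07 ± 0.086 (standard error; q = 0.766 in limma), and its 95% interval of -0.15 to 0.29 leaves room for changes from 0.903 to 1.22 times. The difference of Bcl3 exceeded that of Nfkbiz by 0.38, 0.46 and 0.28 in the 3 pairs.

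Tnfaip3 encodes A20, an enzyme that edits ubiquitin chains and shuts down signaling from Tnf receptor family members. It had log2 levels of 5.24, 5.45 and 5.43 on the control arrays. The Fc-Eda arrays had 6.51, 6.56 and 6.57. The lowest Fc-Eda array exceeded the highest control array by 1.06, and the SD of the Fc-Eda arrays was 0.034 against 0.11 for the control arrays. The pair differences were 1.27, 1.11 and 1.14, the largest of the 7 genes in every pair. The mean of 1.17 ± 0.084 (standard error) ranked 17 among all probe sets by size of rise (q = 0.10 in limma, 0.0036 in IBMT and 0.000103 in the Cyber-T type test). The 95% interval of 0.96 to 1.38 corresponds to 1.94 to 2.61 times. IBMT did not call it without pair 1 (q = 0.133), and the Cyber-T type test called it with any of the pairs left out.

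Cyld encodes a deubiquitinase that cuts chains on several signaling adaptors and is best known as the tumour suppressor lost in cylindromatosis. Control arrays had log2 levels of 4.97, 5.22 and 5.19, and Fc-Eda arrays 5.40, 5.25 and 5.29. The groups did not overlap, but the gap between them was 0.03. The pair differences were 0.43, 0.03 and 0.10, and pair 1, which holds the array of control 1, had the largest of them. That mean was 0.19 ± 0.11 (standard error), with a 95% interval of -0.09 to 0.47 (q = 0.751 in limma). Without pair 1 it was 0.06. After cyclic loess, which aligns the arrays at each level, pair 1 still had 0.53 against 0.02 and 0.11. Between these 2 enzymes the difference of Tnfaip3 was larger by 0.83, 1.08 and 1.04 in the 3 pairs.

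**Figure D3:**
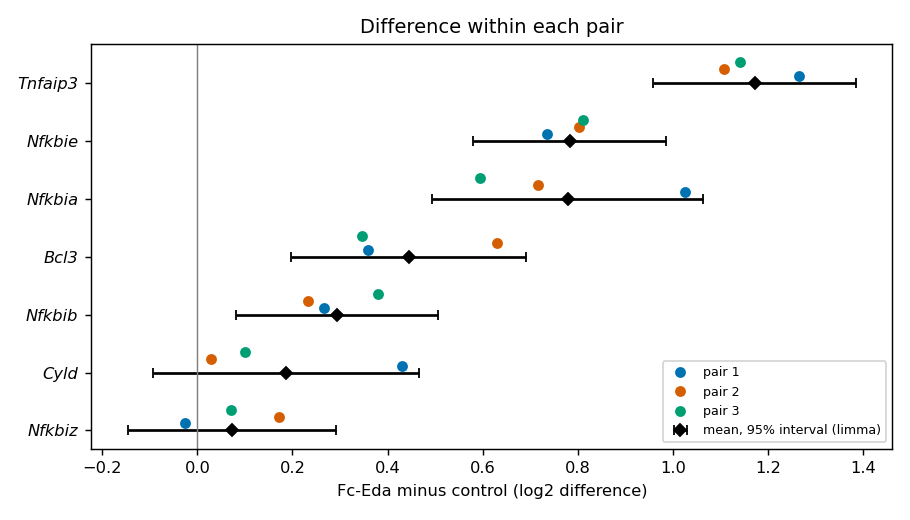
Fc-Eda minus control as a log2 difference (x axis) for each gene (rows), with points for the 3 pairs and diamonds with bars for the mean and its 95% interval from limma. The 3 points of Tnfaip3 lie between 1.11 and 1.27, to the right of those of the other 6 genes, and the intervals of Cyld and Nfkbiz cross 0.

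Ordered by the mean difference, the genes were Tnfaip3, Nfkbie, Nfkbia, Bcl3, Nfkbib, Cyld and Nfkbiz. Tnfaip3 was first in all 3 pairs, and Nfkbie and Nfkbia filled the next places in all 3, in changing order. Of the 21 possible pairs of genes, 15 had pair differences whose ranges did not overlap. These gene pairs reuse the same 7 genes and 6 arrays, and probes differ in how well they bind, so the order is a description. Among neighbours in the order, the ranges were apart between Tnfaip3 and Nfkbie, with gaps of 0.53, 0.31 and 0.33, and overlapped between every other pair of neighbours. Nfkbie and Nfkbia differed by 0.00 on average with an SD of 0.26 over the pairs. With 3 pairs an exact sign-flip test cannot give a two-sided p under 0.25, and an exact permutation test of 3 arrays against 3 cannot go under 0.1, so that neither could pass 0.05 for any of these values.

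Set beside all probe sets, the median difference of the 7 genes was 0.44 and that over all probe sets was -0.02. In 6 of the 7 the difference was above 0 in each pair, as in 13.2% of probe sets, and in 3 of the 7 it exceeded 0.5 in each pair, as in 0.281%. None of the 7 was lower in each pair, against 15.3% of probe sets, or lower by over 0.5 in each pair, against 0.0385%. The probe sets were also divided into 20 groups by mean level, because the spread of the differences depends on the level. Around the level of Tnfaip3, the central 95% of the mean differences ran from -0.31 to 0.30, and around that of Nfkbia from -0.20 to 0.26. Tnfaip3, Nfkbia, Nfkbie and Bcl3 lay above the upper bound of their group. Nfkbib, at 0.29, was under the bound of 0.33 for its group, and so were Cyld and Nfkbiz under theirs.

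**Figure D4:**
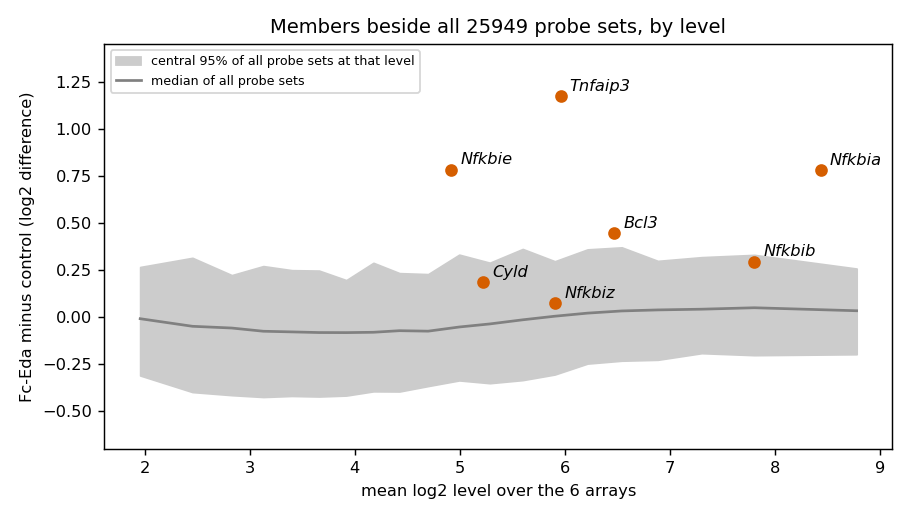
Mean Fc-Eda minus control as a log2 difference (y axis) against the mean log2 level over the 6 arrays (x axis), with the 7 genes as points, the median of all 25949 probe sets as a line and their central 95% at each level as a band. Tnfaip3 at 1.17, Nfkbie and Nfkbia at 0.78 and Bcl3 at 0.44 lie above the band, and the other 3 genes lie within it.

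Since the array of control 1 stood apart, the pair 1 differences were read again after other normalizations of the deposited values. For Nfkbia the pair 1 difference went from 1.03 as deposited to 0.93 after quantile normalization and 0.91 after cyclic loess, and remained the largest of its 3. For Nfkbie it went from 0.74 to 0.94 and 0.90 and became the largest instead of the smallest of its 3. For Nfkbib it went from 0.27 to 0.17 and 0.14, and for Tnfaip3 from 1.27 to 1.35 and 1.24. The mean of Tnfaip3 was 1.19 and 1.17 under these normalizations, that of Nfkbie 0.83 and 0.84, and that of Nfkbia 0.74 and 0.73. IBMT after cyclic loess called Tnfaip3 (q = 0.0372) but no longer Nfkbia or Nfkbie, both with q = 0.0647. Centring each array on its median raised the mean difference of every gene, as it moved the median over all probe sets from -0.02 to 0.03, and from -0.07 to 0.11 in pair 1. It adds the same amount to each pair 1 difference. These became 1.21 for Nfkbia, 0.45 for Nfkbib and, from -0.03 as deposited, 0.16 for Nfkbiz. For Nfkbiz the sign changed under centring only, and quantile normalization and cyclic loess each gave -0.04. Those normalizations each brought the pair 1 median over all probe sets to 0.01.
The test, normalization, filter and pairs left out were varied in 25 combinations with adjusted p or q values. Across them Tnfaip3 passed 0.05 in 15, Nfkbia in 11, Nfkbie in 9, Bcl3 in 5, and Nfkbib, Cyld and Nfkbiz in 0. The 9 of Nfkbie include a level filter that it passed through its Fc-Eda arrays. Over all 25949 probe sets these settings called from 0 to 337 higher and from 0 to 269 lower. They reuse the same 6 arrays, some were chosen after seeing the data, and some repeat the calls of another. The counts therefore do not measure how firm a rise is. A further setting was a paired test with no moderation of the variance and no adjustment. Its unadjusted p was under 0.05 for Tnfaip3, Nfkbia, Nfkbie, Bcl3 and Nfkbib. Of all 25949 probe sets, 802 were higher and 696 lower at that p.

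**Figure D5:**
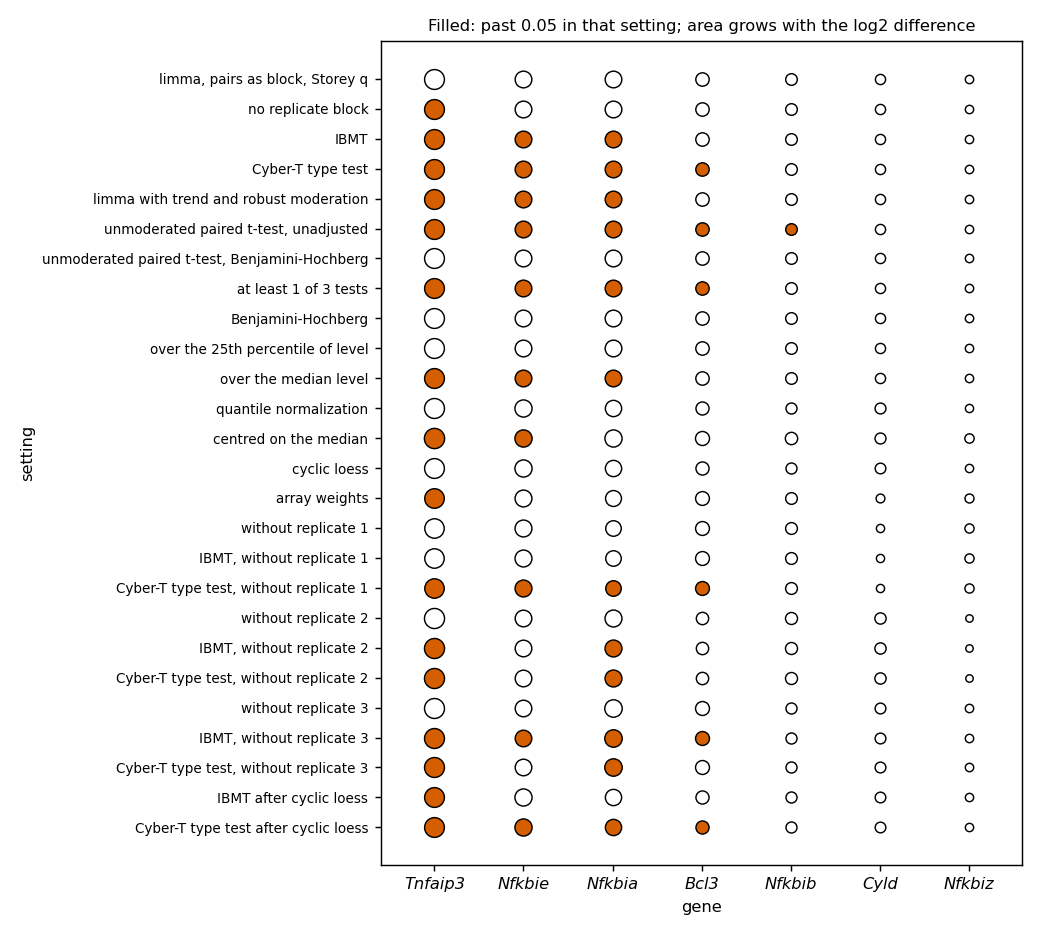
The 26 combinations of test, normalization, filter and pairs left out (rows) for each gene (columns), with filled circles where the gene passed 0.05 (by an unadjusted p in 1 row, by adjusted values in the other 25) and the area of a circle growing with the log2 difference. Tnfaip3 is filled in 16 rows, Nfkbia in 12 and Nfkbie in 10, and Cyld and Nfkbiz in none.

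Probe sets with a profile like that of Tnfaip3 were sought among the 82 others that changed by over 0.5 in the same direction in each pair. By Pearson correlation over the 6 arrays, given as a description because the arrays fall into 2 conditions, the most alike were ENSMUSG00000039934, with r = 0.998 and a mean difference of 1.35, and ENSMUSG00000024349, with r = 0.994 and a mean difference of 0.67. Their names are not paired with these identifiers in the sources used here. In the same list Nfkbia held rank 28, with r = 0.955, and Nfkbie rank 41, with r = 0.932.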

How the data were processed

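Eda-/- mammary buds were profiled on 6 Affymetrix Mouse Exon 1.0 ST arrays, 3 in control medium and 3 with Fc-Eda. The authors deposited log2 values for 25949 probe sets, each under an Ensembl identifier. RMA is listed in the submitters' processing notes, without settings or a probe set definition. The arrays differ in their medians and interquartile ranges, so it is not settled which normalization gave the deposited values. No value was missing, no 2 arrays were identical, and raw scanner signals were not used here.

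Pool sizes in the text follow the labels, and the paper's methods give 15 to 20 buds of 4 or 5 embryos. Condition and replicate number came from the sample titles. The numbers pair the arrays because control and treated buds came from the same embryos. The deviations from the mean of each condition correlated within pairs 1, 2 and 3 with r = 0.079, 0.29 and 0.29. Arrays of different pairs were not correlated, so these values do not test the pairing. Each probe set was fitted in limma 3.58.1 (R 4.3.3) with treatment and pair as terms. For Storey q-values, the share of unchanged probe sets was smoothed over lambda (0.05 to 0.95) with a spline (3 degrees of freedom). IBMT (loess span 0.75) and the Cyber-T type test (window 101, prior weight 10) were written out and may differ from the original programs. Both were tested on simulated data, where the Cyber-T type test made more false calls than IBMT or limma. A gene called by the Cyber-T type test alone is therefore the least secure. Alternatives covered the test, the block, the adjustment, the level filter, the normalization, array weights and each pair left out. Precision is limited by how few arrays there are.

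The text names the 7 genes and the probe sets most correlated with the gene of the largest difference. Gene names follow the identifiers given for the 7 genes. These genes, the lists and the alternatives were chosen with earlier results of these data known. Lists of other NF-κB pathway genes and of cell type markers were not analysed here, because no names pair with the other identifiers, and protein features were not analysed here. The κB motif was searched with Python 3.11.15 in RefSeq promoter windows.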

Additional observations from a re-analysis of the deposited data

How the results depend on the processing

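Leaving out pairs in, or applying cyclic loess before, IBMT or the Cyber-T type test was chosen after seeing the data. The other alternatives were planned, though with earlier results of these data known. Limma called 0 of the 7 genes and 0 probe sets in all, higher or lower, and did so too with Benjamini-Hochberg adjustment, the 25th percentile filter, quantile normalization and cyclic loess. Of the 7, IBMT called 3, limma with trend and robust moderation together 3, limma above the median level 3, centring 2 and array weights 1. The Cyber-T type test called 4, the rule of at least 1 of 3 tests 4, IBMT after cyclic loess 1 and the Cyber-T type test after it 4. The median filter used the mean over all 6 arrays, control and Fc-Eda. Nfkbie, with a mean level of 4.92, passed it, while its control arrays lay at 4.34 to 4.70, below the median of every array. Its call above the median level (q = 0.0134) therefore rests on a filter passed through the Fc-Eda arrays and adds no support. The fit with no replicate block, which ignores the pairing, called 1, Tnfaip3. A paired t-test with no moderation of the variance, unlike the 3 tests of the methods, called 5 unadjusted and 0 after Benjamini-Hochberg adjustment. With a pair left out, between 0 and 4 were called, and limma called 0 each time. No setting called a gene of the 7 lower.

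The differences behind these calls were 1.17 for Tnfaip3, 0.78 for Nfkbia, 0.78 for Nfkbie, 0.44 for Bcl3 and, in that unmoderated test, 0.29 for Nfkbib. They were 1.23 for Tnfaip3 and 0.84 for Nfkbie after centring, 1.14 for Tnfaip3 with array weights, and 1.17, 0.73, 0.84 and 0.42 for Tnfaip3, Nfkbia, Nfkbie and Bcl3 after cyclic loess. With a pair left out they ranged from 1.12 to 1.20 for Tnfaip3 (1.19 without pair 3), 0.66 to 0.87 for Nfkbia, 0.77 to 0.81 for Nfkbie, 0.35 to 0.49 for Bcl3, 0.25 to 0.32 for Nfkbib, 0.06 to 0.26 for Cyld and 0.02 to 0.12 for Nfkbiz. No mean difference reversed, but settings that change the test, the adjustment or the filter reuse the same mean. IBMT called 0 of the 7 without pair 1, where it called 0 probe sets in all, 2 without pair 2, with 54 higher and 2 lower in all, and 4 without pair 3, with 256 and 269, where its prior became infinite. The Cyber-T type test called 4 of the 7 without pair 1, with 337 higher and 175 lower in all, 2 without pair 2, with 82 and 8, and 2 without pair 3, with 78 and 25.

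Over all probe sets the calls higher and lower were 88 and 6 in IBMT. They were 162 and 31 in the Cyber-T type test and in the rule of at least 1 of 3. Limma called 90 and 6 with trend and robust moderation together, 85 and 6 above the median level and 56 and 1 after centring. It called 11 and 0 with array weights and 3 and 0 with no replicate block. The unmoderated test called 802 and 696, or 0 and 1 after Benjamini-Hochberg adjustment. The Cyber-T type test called 186 and 61 after cyclic loess, and IBMT 18 and 1. Without 1 of the pairs, limma called 0 to 10 higher and 0 to 1 lower. Causes of these changes were not tested. Background signal is unknown here, and detection was not judged.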
